A study of Mus musculus with 37 samples.

Results

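Genes that encode chromatin modifiers and remodelers were followed in the dentate gyrus (DG) and the nucleus accumbens (NAcc) of mice that overexpressed the glucocorticoid receptor in the forebrain. The members were chosen by symbol alone: every gene whose RefSeq name starts with Hdac, Kdm, Kmt, Smarc, Setd, Dnmt, Tet, Chd, Brd or Kat, the last 4 followed by a digit. The rule gave 85 genes of the 16485 genes with a measured feature, and 5 of them (Dnmt3a and Smarca2 among them) had several features, of which the one with the highest mean over all arrays was used. Grouped by name, they comprise 17 lysine demethylases, 13 Smarc genes (mostly SWI/SNF and ISWI remodelers), 10 histone deacetylases, 9 CHD remodelers and 8 SET domain methyltransferases. The others are 8 lysine acetyltransferases, 7 lysine methyltransferases of the Kmt name, 7 bromodomain proteins, 4 DNA methyltransferases and 2 TET dioxygenases. After a filter on low signal 78 members were tested in DG, 77 in NAcc and 79 between the regions. Dnmt3l, Hdac8, Kdm4d, Kdm8 and Setd5 were too low to be tested in either region.

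Chromatin enzymes set how tightly DNA is packed and which genes can be read. Remodelers of the SWI/SNF (BAF), ISWI and CHD families use ATP to move or evict nucleosomes, acetyltransferases and methyltransferases write marks on histone tails, deacetylases and demethylases remove them, and bromodomain proteins bind acetylated histones. DNA methyltransferases add methyl groups to cytosine, chiefly where it is followed by guanine, and TET enzymes oxidize them. The glucocorticoid receptor is a hormone-dependent transcription factor that binds DNA and recruits BAF complexes, acetyltransferases and deacetylases to its targets. In neurons several of these genes are linked to activity-dependent transcription and memory.

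All animals were adult male C57BL/6J mice that had been left undisturbed and were sampled in the morning. They overexpressed the receptor in early life (6 DG and 6 NAcc arrays, animals 1 to 6), overexpressed it for the whole lifetime (6 DG and 7 NAcc arrays, animals 7 to 13), or were controls without overexpression (6 and 6 arrays, animals 14 to 19). Each array holds amplified RNA of 1 region of 1 animal, taken by laser capture, and 18 of the 19 animals gave both regions. What drives the transgene, and how its activity was restricted to early life, is not given in the sources used here. Signals are log2 values after RMA, an array normalization and summarization method, so a difference of 1 is a doubling. A difference is said to have risen, fallen or passed where the two-sided limma test, adjusted by the Benjamini-Hochberg method over all 11301 features tested, gave a value under 0.05. Errors are SD over arrays or the SE of the limma coefficient.

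The arrays were not equal in spread, which touches the DG comparisons with control. The interquartile range of the log2 values ran from 2.64 to 2.75 in the 6 control DG arrays, from 2.72 to 2.95 in the early group and from 2.79 to 3.04 in the lifetime group. It exceeded control in both groups in two-sided exact permutation tests (adjusted p = 0.0195 and 0.0130 over 6 contrasts). In NAcc, 1 early array (number 5) was unlike the rest, with a range of 1.72 against 2.28 to 2.42 in the other early arrays, and the median of lifetime array 8 was 6.27 where the others of its group had 6.13 to 6.18. The granule cell list averaged 9.99 to 10.9 in the DG arrays and 5.88 to 6.54 in NAcc, and the medium spiny neuron list was the reverse (7.51 to 7.92 and 8.80 to 10.3). Nr3c1, the receptor gene itself, did not pass in any group: the DG differences from control were +0.15 (SE 0.10, adjusted p = 0.274) in the early and +0.25 (SE 0.10, adjusted p = 0.0757) in the lifetime group. The sources used here do not say which Nr3c1 transcripts its feature detects, the transgene's included, so these values do not check the labels.

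In DG, more of these genes rose than fell in both overexpressing groups. In the early group 13 of the 78 tested members rose and 2 fell, or 19.2%, where 11.4% of all features passed (6.17% rose and 5.26% fell). In the lifetime group 13 rose and 2 fell, again 19.2%, where 15.3% of all features passed (8.88% rose and 6.45% fell). Differences were above 0 for 54 members in the early and 60 in the lifetime group. The median member difference was +0.12 in each group, and the median over all features was −0.01 and +0.00. The balance of rises and falls depended on the scaling, for all features as well as for the members. With each array centred on its median, 17 members rose and 1 fell in the early group, where 9.75% of all features rose and 2.78% fell, and 16 rose and 2 fell in the lifetime group, where 12.4% rose and 4.17% fell. Both groups are set against the same 6 control arrays, so the 2 comparisons are not independent.

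The members' mean moved with the spread of the arrays. The mean of the tested members was 8.16 to 8.26 in control DG arrays, 8.22 to 8.40 in the early and 8.24 to 8.47 in the lifetime arrays, and the groups overlapped. When this range was added to the limma model as a covariate, 0 members passed in either comparison, although all 15 differences kept their direction in each. At an unadjusted p under 0.05 there were then 11 and 8 of 78 members (14.1% and 10.3%), where 9.69% and 11.6% of all features were. Over all features 1 and 74 then passed. Features with high signal also moved up more than those with low signal: when the features were split by mean level into 3 classes of equal size, the upper class had a median early difference of +0.07 over all features and +0.16 over 29 members, and the lower class had −0.08 over all features and +0.06 over 15 members. In bulk tissue, more RNA per cell and more cells of a type cannot be told apart. All 5 tested of 8 microglia markers were below control in both groups, with medians of −0.29 and −0.28; the log2 of the summed signal of the list was 10.71 to 10.91 in control, 10.24 to 10.98 in the early and 10.30 to 10.70 in the lifetime arrays. All 9 granule cell markers were above control in the early group (median +0.39) and 4 of 9 in the lifetime group, with summed signals of 13.9998 to 14.80 in control, 14.34 to 14.90 in the early and 14.24 to 14.62 in the lifetime arrays. For the list of immature neurons and progenitors the log2 of the summed signal was 9.71 to 10.01 in control, 10.02 to 10.37 in the early and 10.54 to 11.32 in the lifetime arrays. No 2 groups overlapped on this sum, which strong genes dominate. By the list mean the lowest early array (7.1704) lay inside the control range (6.80 to 7.1707), and the lifetime arrays were at 7.44 to 7.92. Of the 6 markers in this list 5 were tested, 4 above and 1 below control in both groups, with medians of +0.29 and +0.40. Sox11 rose (+0.41 and +0.49) and Nes fell (by 0.26 and by 0.25) in both groups, and Tbr1 rose by +2.21 in the lifetime group. The part of these marker shifts in the results was not tested.

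**Figure D1:**
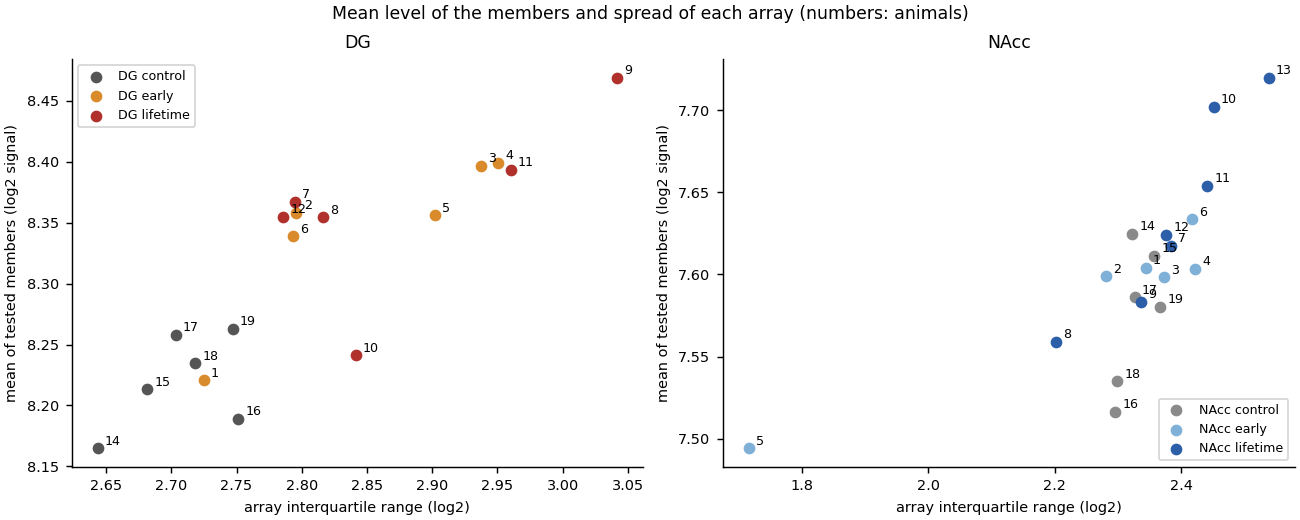
Mean log2 signal of the tested members (vertical axis) against the interquartile range of the log2 values of the same array (horizontal axis), in DG (18 arrays) and NAcc (19 arrays). Each point is 1 array, coloured by group and numbered by animal. Control DG arrays lie at ranges of 2.64 to 2.75 and the lifetime arrays at 2.79 to 3.04, and NAcc array 5 lies apart at 1.72.

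All 13 Smarc members, grouped by name and mostly SWI/SNF and ISWI genes, were tested in DG. Of these, 4 rose in the early and 4 in the lifetime group, and none fell. For this and the families below, 6.17% of all features rose and 5.26% fell in the early group. In the lifetime group 8.88% rose and 6.45% fell. Smarca2, which encodes BRM, an ATPase of BAF complexes, had a signal of 10.04 to 10.50 in control DG (median 10.31), 10.56 to 11.48 in the early group (median 11.04) and 10.32 to 11.29 in the lifetime group (median 10.96). Every early array was above every control array, whereas the lifetime range overlapped control. The differences were +0.71 (SE 0.17, 1.63-fold, adjusted p = 0.0176) and +0.62 (SE 0.17, 1.53-fold, adjusted p = 0.0191). A second Smarca2 feature, which may share transcripts with the first, gave +0.67 and +0.45 (adjusted p = 0.0138 and 0.0438).

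Smarce1, which encodes the DNA-binding subunit BAF57, ran from 8.999 to 9.48 in control (median 9.16), from 9.33 to 10.30 in the early group (median 9.67) and from 9.63 to 9.98 in the lifetime group (median 9.87). Lifetime and control arrays did not overlap, while the early arrays reached into the control range. Smarce1 rose by +0.54 (SE 0.14, adjusted p = 0.0237) and +0.64 (SE 0.14, adjusted p = 0.0066). Smarcd3 encodes BAF60C, 1 of 3 alternative BAF60 subunits, and followed another course. It was 7.91 to 8.76 in control (median 8.23), 7.92 to 8.34 in the early group (median 8.13) and 8.52 to 9.12 in the lifetime group (median 8.74). Lifetime arrays were thus all above all early arrays, and early and control arrays overlapped throughout. Its lifetime difference was +0.56 (SE 0.12, 1.47-fold, adjusted p = 0.00761) and its early difference −0.11 (SE 0.12, adjusted p = 0.581).

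The other BAF60 genes differed from Smarcd3 and from each other. Smarcd2, which encodes BAF60B, rose in the early group by +0.38 (SE 0.09, adjusted p = 0.0221) and was +0.22 in the lifetime group (adjusted p = 0.115). Smarcc2, a core scaffold subunit (BAF170), passed in the lifetime group alone, at +0.44 (SE 0.15, adjusted p = 0.0486, 5 of 6 arrays above the control mean), against +0.30 (adjusted p = 0.165) in the early group. Smarca1, an ISWI ATPase (SNF2L), rose by +0.30 in the early group (SE 0.09, adjusted p = 0.0448). In the early group Smarcd2 and Smarca1 lie outside the naming rule, as do Kmt2c, Kmt2e and Kdm5d there and Kmt2c, Kdm5a, Dnmt3a, Chd6 and Hdac6 in the lifetime group, and they were named after their values were seen. Smarca4, which encodes BRG1, the alternative ATPase to BRM, had +0.20 and +0.15 and did not pass.

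**Figure D2:**
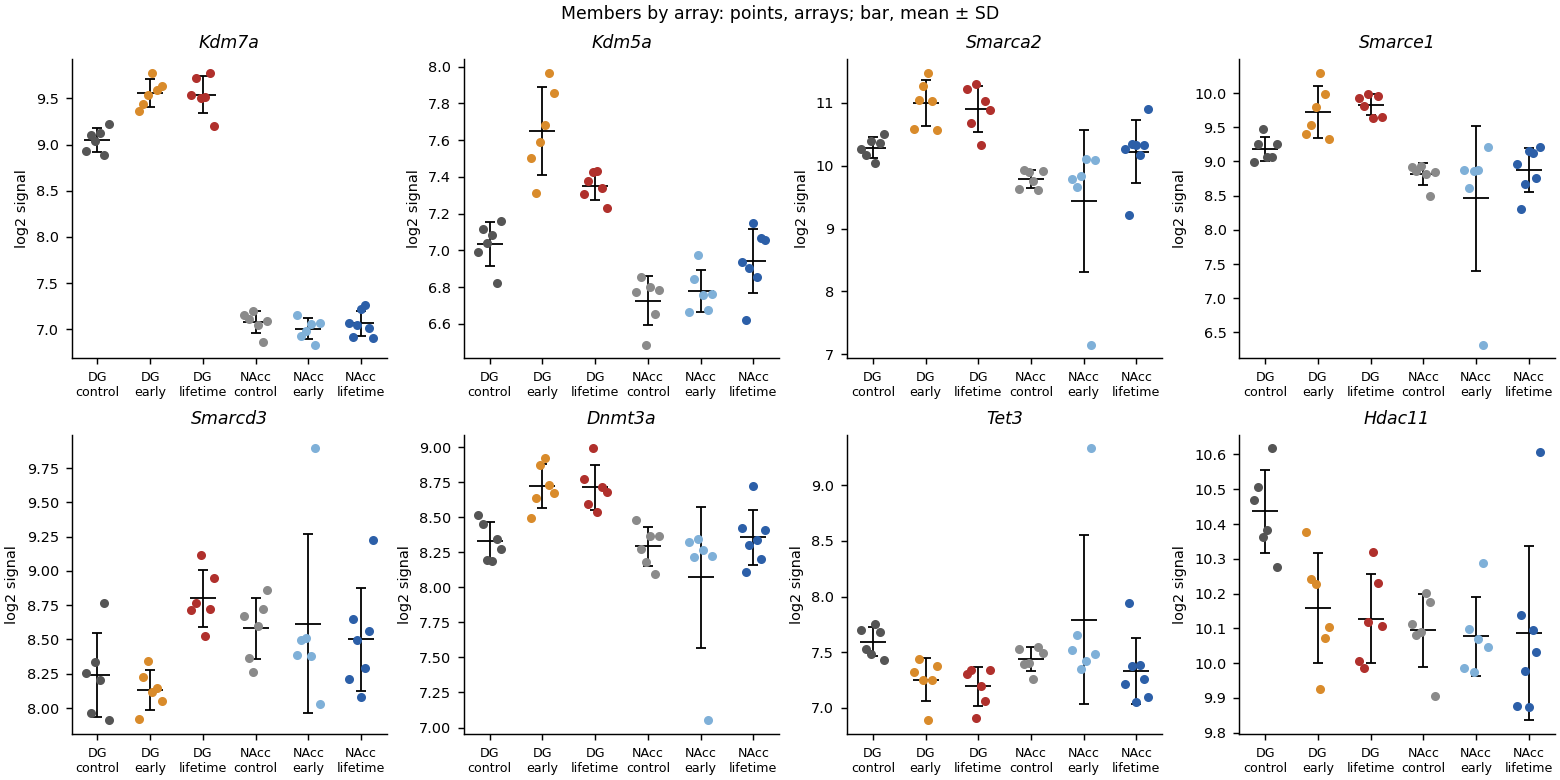
Log2 signal (vertical axes, each with its own range) of 8 members in each array, by region and group, with 6 arrays a group and 7 in NAcc lifetime. Points are arrays and the bar gives mean ± SD. In DG Kdm7a, Smarca2, Smarce1 and Dnmt3a lie higher in both overexpressing groups, Smarcd3 in the lifetime group, and Tet3 and Hdac11 lower in both; the NAcc early array far from its group for Smarca2 (7.15) and Tet3 (9.33) is array 5.

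Among the 9 CHD remodelers Chd2 rose in the early group and Chd3 and Chd6 in the lifetime group, where 6.17% and 8.88% of all features rose. Chd3, an ATPase of the NuRD corepressor complex, had the largest rise of any member: 8.91 to 9.96 in control (median 9.25) and 9.12 to 10.69 in the lifetime group (median 10.33). The difference was +0.91 (SE 0.25, 1.88-fold, adjusted p = 0.0207), and lifetime array 10, at 9.12, lay within the control range. Its early difference was nearly as large, +0.73 (SE 0.25), and missed the threshold (adjusted p = 0.0598). Chd2, a remodeler whose human gene is mutated in epileptic encephalopathy, was 7.90 to 8.42 in control (median 8.10) and 8.26 to 8.80 in the early group (median 8.63), a difference of +0.46 (SE 0.13, adjusted p = 0.0285). Chd6 rose by +0.31 in the lifetime group (SE 0.07, adjusted p = 0.00909), with no overlap with control.

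Lysine demethylases gave 4 rises in the early and 2 in the lifetime group out of 14 tested, and no fall. Of all features 6.17% and 8.88% rose, and 11.4% and 15.3% passed in either direction. Kdm7a encodes a demethylase that removes repressive methyl marks from histone H3. Its signal was 8.89 to 9.23 in control DG (median 9.07), 9.37 to 9.78 in the early group (median 9.56) and 9.20 to 9.78 in the lifetime group (median 9.52). All early arrays were above all control arrays, and 1 lifetime array fell in the control range. The differences were +0.51 (SE 0.09, 1.42-fold, adjusted p = 0.00814) and +0.49 (SE 0.09, 1.40-fold, adjusted p = 0.00322).

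Kdm5a, which removes the methyl mark of active promoters, had its larger difference in the early group. It was 6.82 to 7.16 in control (median 7.06), 7.31 to 7.97 in the early group (median 7.63) and 7.23 to 7.43 in the lifetime group (median 7.36), so that neither overexpressing group overlapped control. The differences were +0.61 (SE 0.09, 1.53-fold, adjusted p = 0.00553) and +0.32 (SE 0.09, adjusted p = 0.0292), and early and lifetime did not differ past the threshold. Kdm4c, a demethylase of repressive H3 marks, rose by +0.52 in the early group (SE 0.15, adjusted p = 0.0341) and was +0.34 in the lifetime group (adjusted p = 0.119). Kdm5d, the Y-linked member of the Kdm5 family, rose by +0.29 in the early group (SE 0.08, adjusted p = 0.0305).

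Of the methyltransferases, Kmt2c and Kmt2e rose in the early group and Kmt2c in the lifetime group, and all 7 Kmt genes had differences above 0 in both. Kmt2c, which writes a mark of enhancers, was 9.39 to 9.62 in control (median 9.55), 9.67 to 10.04 in the early group (median 9.92) and 9.58 to 9.86 in the lifetime group (median 9.82). The early arrays lay wholly above control. The differences were +0.36 (SE 0.07, adjusted p = 0.0106) and +0.23 (SE 0.07, adjusted p = 0.0359). Kmt2e rose by +0.22 (SE 0.07, adjusted p = 0.0425). Setd6, which methylates the NF-κB subunit RelA, was the only one of 7 tested SET domain genes to pass, at +0.42 in the early group (SE 0.12, adjusted p = 0.0306) against +0.08 (adjusted p = 0.667) in the lifetime group. Early array 1, at 8.65, was the 1 early array below the control mean for Setd6.

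The 2 members of the MYST acetyltransferase family named Kat6a and Kat6b rose in the lifetime group. Kat6a (MOZ) was 8.21 to 8.66 in control (median 8.38), 8.50 to 8.83 in the early group (median 8.77) and 8.42 to 9.11 in the lifetime group (median 8.96). Its ranges overlapped, and the differences were +0.47 (SE 0.11, adjusted p = 0.00857) in the lifetime and +0.30 (adjusted p = 0.0661) in the early group. Kat6b (MORF) was +0.41 in the lifetime group (SE 0.14, adjusted p = 0.0489). No other acetyltransferase passed in DG, and none of the 7 bromodomain genes did.

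Histone deacetylases were the enzyme family of histone marks in which a member fell. Hdac11, the class IV deacetylase, was 10.28 to 10.62 in control (median 10.43), 9.93 to 10.38 in the early group (median 10.17) and 9.99 to 10.32 in the lifetime group (median 10.11). The groups overlapped at 1 or more arrays, and Hdac11 fell by 0.28 (SE 0.08, adjusted p = 0.0375) and by 0.31 (SE 0.08, adjusted p = 0.0193). Hdac6, a cytoplasmic deacetylase of tubulin, rose by +0.21 in the lifetime group (SE 0.07, adjusted p = 0.0457). Of 8 deacetylases tested, 6 had differences below 0 in the early and 4 in the lifetime group. Hdac2, which has been linked to memory in mice, was +0.31 and +0.52 and did not pass (adjusted p = 0.298 and 0.080).

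Among the enzymes of DNA methylation Dnmt3a rose and Tet3, which oxidizes methylcytosine, fell in both groups. Dnmt3a, the de novo methyltransferase of mature neurons, was 8.19 to 8.52 in control (median 8.31), 8.49 to 8.92 in the early group (median 8.70) and 8.53 to 8.99 in the lifetime group (median 8.70). Lifetime arrays did not overlap control, and the lowest early array lay just inside the control range. Dnmt3a rose by +0.39 in both groups (SE 0.09, 1.31-fold in the early group, adjusted p = 0.0162 and 0.00918), and its second feature by +0.33 and +0.32 (adjusted p = 0.0173 and 0.0110). Tet3 was 7.43 to 7.75 in control (median 7.60), 6.89 to 7.44 in the early group (median 7.28) and 6.91 to 7.34 in the lifetime group (median 7.25). Every lifetime array was below every control array. Tet3 fell by 0.34 (SE 0.10, adjusted p = 0.0315) and by 0.40 (SE 0.10, adjusted p = 0.0114). Dnmt1, the maintenance methyltransferase, Dnmt3b and Tet2 did not pass in either group.

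**Figure D3:**
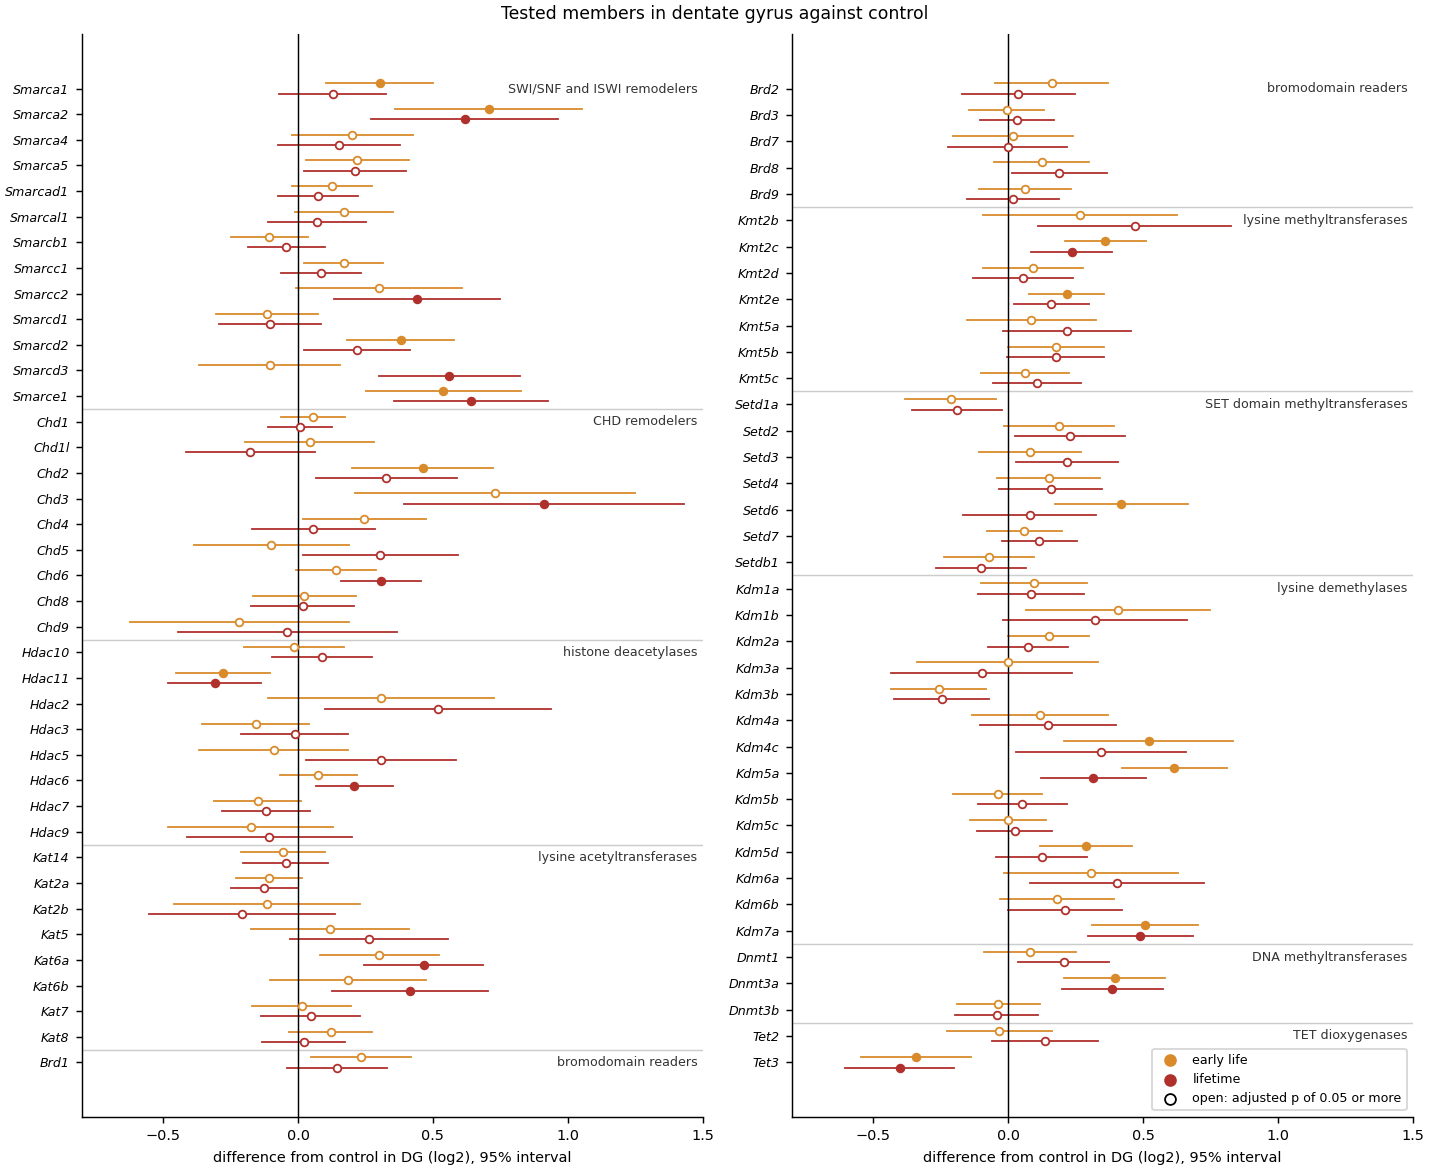
Difference from control in DG on the log2 scale (horizontal axis), with 95% intervals from limma, for 77 of the 78 tested members in 10 families, for early (orange) and lifetime (red) overexpression, 6 arrays a group. Filled points have an adjusted p under 0.05. Filled points to the right of 0 number 13 in each group, and Hdac11 and Tet3 are the filled points to the left.

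Which DG members passed depended in part on single arrays. Leaving out 1 DG array at a time, 3 to 19 members passed in the early comparison: 3 without early array 4, 6 without early array 3, early array 5 or control array 14, and 8 without control array 17. The count over all 11301 features moved as well, from 213 without early array 4 to 2273 without early array 1, where 19 members passed. Kdm5a, Kdm7a and Kmt2c passed in all 18 such fits. Smarca2 and Dnmt3a missed the threshold without early array 4 alone (adjusted p = 0.0543 and 0.0505). Smarce1, Kdm4c, Chd2, Setd6, Tet3 and Hdac11 missed it without any one of early arrays 3, 4 and 5 and control array 14, with adjusted p up to 0.106. In the lifetime comparison 8 to 22 members passed, 8 without lifetime array 9 and 22 without lifetime array 10. Of all features 808 and 2611 passed in these 2 fits. Chd6, Dnmt3a, Hdac11, Kat6a, Kdm7a, Smarcd3, Smarce1 and Tet3 passed in all 18 fits. Chd3 missed without lifetime array 9 or 11 (adjusted p = 0.0607 and 0.0506), Smarca2 without lifetime array 9 (0.0573), and Smarcc2, Kat6b and Hdac6 passed in only 4, 5 and 5 of the 18 fits. In the early comparison Kmt2e passed in 5 and Smarca1 in 7 of 18. A fit with the animal as a replicate block differed in 2 more ways, since it pooled both regions and centred each array on its median, and centring alone gave 18 members in each comparison. In that fit 8 members passed in the early and 7 in the lifetime comparison, all rises, where 618 and 1049 of all 11301 features passed. Of the original 15 calls these kept 5 and 6: Kdm7a and Kdm5a in both groups, Kmt2c, Smarcd2 and Smarca1 in the early group, and Chd3, Kat6a, Smarcc2 and Smarcd3 in the lifetime group.

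Promoter sequences of 5 members with these changes are shown because the members include the writers and oxidizers of cytosine methylation, whose substrate is the CG dinucleotide, in capitals below. Each run is the 300 bases from 250 before to 50 after the annotated start, 5′ to 3′ on the gene's strand, from RefSeq on build GRCm38.p6. Kdm7a (chr6:39206724-39207023, minus strand), Smarca2 (chr19:26604910-26605209, plus strand) and Smarcd3 (chr5:24601953-24602252, minus strand) rose, and Tet3 (chr6:83441629-83441928, minus strand) and Hdac11 (chr6:91156565-91156864, plus strand) fell.
Kdm7a: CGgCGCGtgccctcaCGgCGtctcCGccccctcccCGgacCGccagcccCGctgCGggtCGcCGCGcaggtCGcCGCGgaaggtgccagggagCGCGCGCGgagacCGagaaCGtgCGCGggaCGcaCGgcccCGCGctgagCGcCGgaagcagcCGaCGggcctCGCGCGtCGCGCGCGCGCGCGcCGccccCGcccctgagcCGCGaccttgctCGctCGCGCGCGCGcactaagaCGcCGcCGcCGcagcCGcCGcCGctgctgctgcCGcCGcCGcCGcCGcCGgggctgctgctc
Smarca2: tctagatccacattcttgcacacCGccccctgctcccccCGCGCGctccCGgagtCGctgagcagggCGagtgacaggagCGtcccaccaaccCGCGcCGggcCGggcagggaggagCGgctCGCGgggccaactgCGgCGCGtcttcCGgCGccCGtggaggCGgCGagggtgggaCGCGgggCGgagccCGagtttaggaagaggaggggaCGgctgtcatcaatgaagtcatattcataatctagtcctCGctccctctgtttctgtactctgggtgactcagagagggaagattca
Smarcd3: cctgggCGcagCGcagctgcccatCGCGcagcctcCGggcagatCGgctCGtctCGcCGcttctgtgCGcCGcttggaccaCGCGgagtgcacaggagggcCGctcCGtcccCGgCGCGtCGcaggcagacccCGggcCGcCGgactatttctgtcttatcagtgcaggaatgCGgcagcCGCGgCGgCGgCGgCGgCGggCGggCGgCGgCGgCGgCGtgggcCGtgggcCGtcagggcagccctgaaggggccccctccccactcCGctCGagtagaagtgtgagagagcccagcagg
Tet3: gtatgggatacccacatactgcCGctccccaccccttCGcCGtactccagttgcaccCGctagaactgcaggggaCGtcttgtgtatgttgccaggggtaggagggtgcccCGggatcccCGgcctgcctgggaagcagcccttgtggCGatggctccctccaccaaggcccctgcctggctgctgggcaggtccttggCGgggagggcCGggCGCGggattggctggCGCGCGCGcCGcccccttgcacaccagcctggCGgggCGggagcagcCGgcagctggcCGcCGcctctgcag
Hdac11: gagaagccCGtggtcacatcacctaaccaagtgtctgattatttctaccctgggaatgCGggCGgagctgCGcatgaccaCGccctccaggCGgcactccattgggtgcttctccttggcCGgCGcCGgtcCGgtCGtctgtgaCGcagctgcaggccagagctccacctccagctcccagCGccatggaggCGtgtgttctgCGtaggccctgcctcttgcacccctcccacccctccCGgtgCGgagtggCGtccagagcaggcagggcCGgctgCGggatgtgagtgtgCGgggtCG
The Kdm7a window held 65 CG dinucleotides, Smarcd3 40, Smarca2 29, and Tet3 and Hdac11 22 each. The median was 24 over the 97 windows of 69 members found in the table and 7 over all 32851 windows. The core of the receptor's palindromic site, ACANNNTGT on either strand, was in none of the 97 member windows and in 6.85% of all windows. The shorter receptor motif TGTTCT, a single arm of the site, on either strand, was in 17 member windows (17.5%) and 18.97% of all windows, and among the 5 shown in Hdac11 alone. These matches describe letters only. The median share of G and C bases was 63% in the member windows and 52.7% in all windows, and its part in the matches was not tested.

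Between lifetime and early overexpression in DG, Smarcd3 was the 1 of 78 members to pass (1.28%, where 1.37% of all features passed). It was higher in the lifetime group by +0.67 (SE 0.12, 1.59-fold, adjusted p = 0.00682), in 6 of 6 arrays and with no overlap. With the interquartile range as a covariate the difference was +0.64 (adjusted p = 0.0070), and it passed without each array in turn (+0.60 to +0.72). In the pooled, centred fit with the replicate block it was +0.66 and missed the threshold (adjusted p = 0.0623). At an unadjusted p under 0.05 there were 6 of 78 members (7.69%), where 9.69% of all features were.

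In NAcc no member passed in limma for early against control, lifetime against control or lifetime against early, where 0.0%, 0.0% and 0.00885% of all features passed. At an unadjusted p under 0.05 there were 4, 6 and 3 of 77 members (5.19%, 7.79% and 3.90%), where 4.92%, 3.67% and 5.29% of all features were. The smallest p values for the early group included those of Smarca1 (+0.23, SE 0.10) and Tet2 (+0.28, SE 0.11), both with adjusted p = 0.784. For the lifetime group the smallest belonged to Kdm6a (+0.41, SE 0.13), Smarca4 (+0.20, SE 0.08) and Kdm5a (+0.21, SE 0.09), all with adjusted p = 1.0. Between the overexpressing groups they were those of Kat6b (+0.41, SE 0.17), Smarca2 (+0.78, SE 0.37) and Kdm6a (+0.28, SE 0.13), with adjusted p = 0.572.

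The NAcc result depended on arrays 5 and 8. Without them 4 members rose in the lifetime group, where 2.47% of all features passed. Smarca2 was 9.62 to 9.93 in control NAcc (median 9.82) and 10.17 to 10.89 in the 6 remaining lifetime arrays (median 10.33), a difference of +0.60 (SE 0.11, adjusted p = 0.0153). These arrays did not overlap control, and array 8, left out, was at 9.21. Kdm6a (UTX), an X-linked demethylase of the Polycomb mark, was 5.95 to 6.46 in control (median 6.17) and 6.47 to 6.86 in the remaining lifetime arrays (median 6.64), a difference of +0.46 (SE 0.08, adjusted p = 0.0153) with no overlap. Kmt2c (+0.29, SE 0.07, adjusted p = 0.0360) and Chd6 (+0.26, SE 0.06, adjusted p = 0.0428) also rose, with overlap between the groups for both. With array weights Kdm6a (+0.43, adjusted p = 0.0144) and Smarca2 (+0.52, adjusted p = 0.0351) passed in the lifetime group, where 144 of all 11301 features did. Kdm6a then also passed in the early group (+0.29, adjusted p = 0.0428), where 287 of all features did. Kat6b passed between the overexpressing groups (+0.54, adjusted p = 0.0368), where 61 of all features did.

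**Figure D4:**
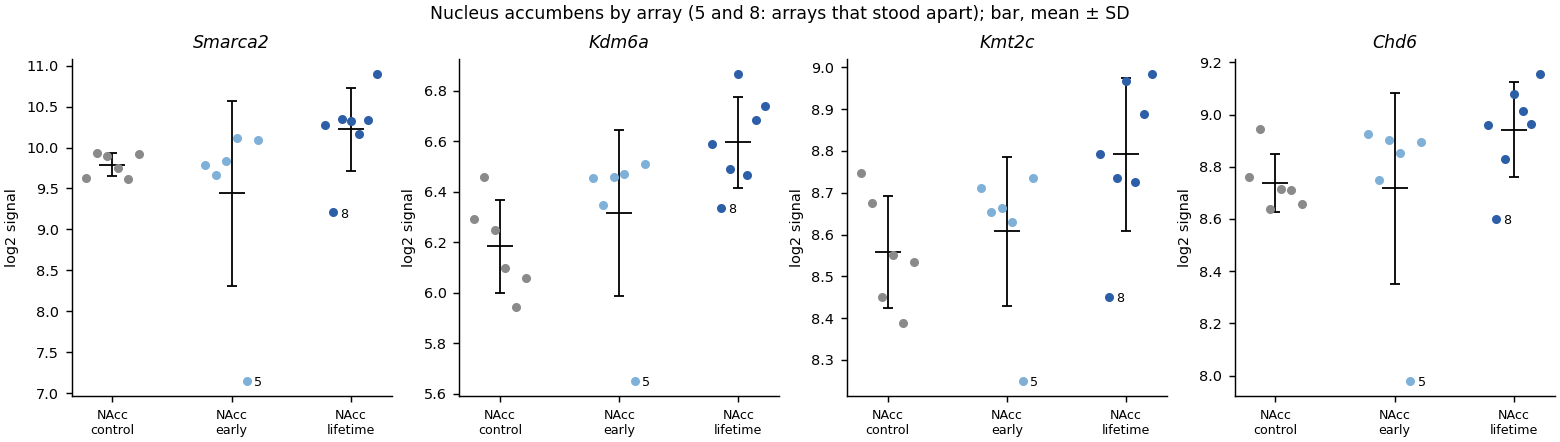
Log2 signal (vertical axes, each with its own range) of Smarca2, Kdm6a, Kmt2c and Chd6 in the 19 NAcc arrays by group (6, 6 and 7 arrays). Points are arrays and the bar gives mean ± SD over all of them. Early array 5 (7.15 for Smarca2) and lifetime array 8 (9.21) are numbered, and the other lifetime arrays of Smarca2 lie at 10.17 or above.

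The regions themselves differed at most members, at about the rate of other genes. After each array was centred on its median, 57 of 79 members differed between DG and NAcc in the 18 animals (72.2%), where 73.0% of all features did. Of these 33 were higher in DG and 24 in NAcc, where 39.5% and 33.5% of all features were. Values as deposited carry a shift of +0.71 in the median feature, since the regions look normalized separately, so the differences here are relative to the array medians. As deposited, 66 members were higher in DG and 5 in NAcc, where 9354 and 759 of all 11301 features were. Of the 24 members higher in NAcc after centring, 15 then had a difference above 0, and 11 of those passed as higher in DG. In the control animals alone, with centring, 28 members were higher in DG and 34 in NAcc, where 3746 and 3944 of all 11301 features were. None of the 57 changed direction there.

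Over all 18 animals, the overexpressing ones included, DG excess was largest for Kdm7a, +1.67 (SE 0.09, 3.17-fold, adjusted p = 5.01e-13), which also rose with overexpression in DG. Hdac10, a deacetylase of polyamines, was 7.30 to 7.74 in control DG and 5.16 to 5.35 in control NAcc as deposited, and its centred difference was +1.58 (SE 0.04, adjusted p = 1.21e-17). The NAcc mean of Hdac10 was under the NAcc filter of 5.772, so it was not tested within NAcc. It entered the region test through its DG signal, and its low side is near the floor. Smarcd2 (+1.51, SE 0.09), Kat6b (+1.46, SE 0.11), Kdm1b (+0.91, SE 0.12), a demethylase also known as LSD2, and Chd8 (+0.76, SE 0.05), a CHD remodeler whose human gene is linked to autism, followed, each higher in 18 of 18 animals. In the control animals alone Hdac10 had the largest of these excesses, +1.55. Kdm7a was then at +1.26, Kat6b at +1.25, Smarcd2 at +1.16, Chd8 at +0.75 and Kdm1b at +0.72. In NAcc the largest excesses over all 18 animals were those of the acetyltransferase Kat2b (PCAF), −0.98 (SE 0.08), and the demethylase Kdm3a, −0.98 (SE 0.12, in 17 of 18 animals). Tet3 (−0.85, SE 0.10), Smarca1 (−0.84, SE 0.06), the demethylase Kdm4b (−0.83, SE 0.06) and Smarcd3 (−0.80, SE 0.12) were each higher in NAcc in 18 of 18 animals. The DG mean of Kdm4b was under the DG filter of 6.338, so it was not tested within DG. The Tet3 value includes its fall with overexpression in DG and NAcc early array 5, at 9.33. In the control animals alone Tet3 was at −0.55, Smarca1 at −0.88, Kdm4b at −0.80 and Smarcd3 at −1.05. Kat2b was then at −1.01 and Kdm3a at −1.15. Other members then exceeded Tet3, Kmt5c (−0.90) among them. As deposited, Tet3 (−0.19, adjusted p = 0.150) and Smarcd3 (−0.14, adjusted p = 0.314) kept their direction and no longer passed.

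The BAF60 genes were again unlike each other, with Smarcd2 higher in DG and Smarcd1 and Smarcd3 higher in NAcc. Smarcd1 and the members given here by family were named after their values were seen. By family, 5 of 7 bromodomain genes were higher in DG (Brd2 at +0.53, Brd8 at +0.52 and Brd9 at +0.39 among them), and Brd1 was lower (−0.34). Of the Kmt genes 5 of 7 were higher in DG, and Kmt5c (−0.79) and Kmt2d (−0.65) were higher in NAcc. Kmt2b, among the 5, had a NAcc mean under the NAcc filter and entered through its DG signal. Over all features 39.5% were higher in DG and 33.5% in NAcc. For the DNA methylation enzymes Tet2 was higher in DG (+0.33, SE 0.05), whereas Tet3, Dnmt3a (−0.31, SE 0.11) and Dnmt3b (−0.11, SE 0.05) were higher in NAcc. Several of these directions hold only relative to the array medians. As deposited, Brd1 (+0.32), Dnmt3a (+0.35) and Dnmt3b (+0.55) passed as higher in DG, while Kmt2d (+0.01, adjusted p = 0.903) and Smarcd1 (+0.04, adjusted p = 0.696) did not pass. Smarca2 (+0.29, SE 0.21) and Smarce1, which rose with overexpression in DG, did not pass between regions.

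**Figure D5:**
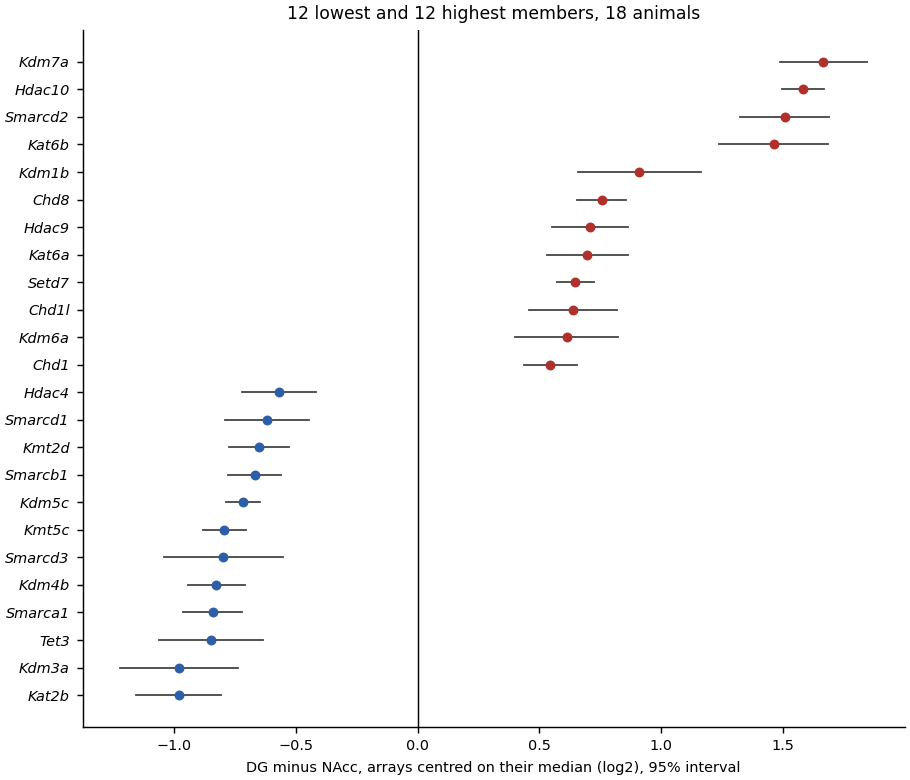
DG minus NAcc difference within 18 animals (horizontal axis, log2, arrays centred on their median) with 95% intervals for the 12 members lowest and the 12 highest on that scale. Red points are higher in DG and blue points in NAcc, from Kdm7a at +1.67 to Kat2b and Kdm3a at −0.98.

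Whether the effect of overexpression differed between the regions was tested on DG minus NAcc within animals, and no member passed for either group, where 0.0% (early) and 0.549% (lifetime) of all features did. At an unadjusted p under 0.05 there were 19 and 9 of 79 members (24.1% and 11.4%), where 19.5% and 11.1% of all features were. The smallest p in each belonged to Kdm7a, whose early effect was +0.58 larger in DG (SE 0.12, adjusted p = 0.0969) and whose lifetime effect was +0.48 larger (SE 0.12, adjusted p = 0.0763). In NAcc its signal was 6.86 to 7.20 in control, 6.83 to 7.15 in the early group and 6.91 to 7.26 in the lifetime group, 3 ranges that overlap throughout. Kdm5a (+0.56, adjusted p = 0.117) and Smarcd2 (+0.56, adjusted p = 0.130) followed for the early effect, and Smarcd3 (+0.76, adjusted p = 0.212) and Kat6a (+0.46, adjusted p = 0.266) for the lifetime effect. Without animals 5 and 8, Kdm7a passed for both effects (+0.54, adjusted p = 0.0336, and +0.41, adjusted p = 0.0472) and Smarcd3 for the lifetime effect (+0.82, adjusted p = 0.0073). Of all 11301 features 36 then passed for the early and 207 for the lifetime effect.

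Partner genes of the same complexes, from lists of 155 genes that the symbol rule does not take in, were measured alongside. Of 131 tested, 15 rose and 4 fell in the early group and 15 rose and 3 fell in the lifetime group, with medians of +0.07 and +0.08 in DG. These are 14.5% and 13.7%, where 11.4% and 15.3% of all features passed. Among 15 other BAF subunits 4 rose and none fell in each group: Arid1b (+0.43 and +0.37), the neuronal subunit Ss18l1 (+0.59 and +0.65), Bcl11b (+0.47 and +0.44) and Bicral (+0.34 and +0.31). Of 18 NuRD and corepressor genes, the nuclear receptor corepressor Ncor1 (+0.46 and +0.38) and Sap18 (+0.37 and +0.43) rose in both groups, Rcor1 in the early and Mta1 in the lifetime group. In the Polycomb list of 24, the methyltransferase Ezh2 (+0.38 and +0.42) and Cbx6 (+0.47 and +0.66) rose and Phf19 fell (by 0.38 and by 0.39) in both groups. Among 11 methyl-DNA genes Uhrf2 rose in both groups (+0.44 and +0.45). In NAcc none of 124 tested passed for lifetime against control. With array spread as a covariate 0 of the 131 passed in either DG comparison (15 and 14 had an unadjusted p under 0.05). In the pooled, centred fit with the replicate block 11 rose and none fell in the early group, and 17 rose and 1 fell in the lifetime group. These are 8.40% and 13.7%, where 618 and 1049 of all 11301 features passed. Of the genes named here, Bcl11b, Ezh2, Cbx6, Sap18 and Phf19 then passed in neither group, Ss18l1 missed in the early group (adjusted p = 0.0626) and Ncor1 in the lifetime group (adjusted p = 0.0732).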

How the data were processed

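The authors deposited 1 table of log2 expression values for 37 arrays, summarized by RMA (version not given) per the submitters' processing notes. There is 1 value per RefSeq transcript accession and array, and array medians (6.79 to 6.93 in DG, 6.13 to 6.50 in NAcc) differ by region, so the regions look normalized separately. Of 24142 accessions, 5307 repeated another's values and were merged, leaving 18835 features, and 20916 accessions matched a symbol in the RefSeq table of GRCm38.p6. Chd7, Hdac1, Kdm2b, Kmt2a, Setd1b, Setdb2 and Tet1 were not analysed here.

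Each region was fitted with limma 3.58.1 in R 4.3.3, the 3 groups sharing 1 variance, on features above the 40th percentile of mean signal (6.338 in DG, 5.772 in NAcc, 6.057 for both). The script was tested on simulated data. Region differences were taken within animals, and DG minus NAcc values were compared between groups. A DG and a NAcc array with the same title number were treated as 1 animal because the series design describes both areas from each animal; deviations of the 2 arrays of an animal correlated at −0.20 to 0.47. Labels name no hybridization batch. The number of arrays limits the precision.

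Named members were Nr3c1, up to 8 rises and 8 falls past the threshold per comparison within a region, otherwise the 3 smallest p, the 6 largest region differences each way, and up to 6 or 3 for the tests between regions. A member that the rule names is not reported here, although the counts include it. Members and lists were chosen with earlier results of these data known. Alternatives were other filters (none, 60th percentile), normalization again, centring, array weights, 2 groups only, array spread, the animal block, means over a gene's features and arrays left out.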

Additional observations from a re-analysis of the deposited data

Results flagged for a closer look

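A gap test for 1 value far from the rest of its group was run on 180 groups of member and array values, of which chance marks about 1 in 20. It marked 32, and 16 of these came from NAcc early array 5. That array had a median of 6.50 (the other early arrays 6.16 to 6.22), an interquartile range of 1.72 (2.28 to 2.42) and a mean over the tested members of 7.49 (7.60 to 7.63).

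Array 5 was the lowest of its group for Smarca2 at 7.15 (others 9.67 to 10.11), Smarce1 at 6.32 (8.61 to 9.22), Setd6 at 6.90 (8.52 to 8.65), Chd2 at 6.74 (7.89 to 8.18), Dnmt3a at 7.05 (8.22 to 8.34), Kdm3a at 7.65 (8.50 to 8.99), Kat2b at 7.31 (7.96 to 8.16) and Kdm6a at 5.65 (6.35 to 6.51). It was the highest for Tet3 at 9.33 (7.35 to 7.65), Smarcd3 at 9.89 (8.03 to 8.51), Chd3 at 10.22 (8.96 to 9.25), Tet2 at 7.33 (6.67 to 6.88) and Kat6a at 7.61 (7.29 to 7.40).

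NAcc lifetime array 8 was lowest for Smarca2, at 9.21 (10.17 to 10.89), and highest for Tet3, at 7.94 (7.05 to 7.39), and had the median of 6.27 (6.13 to 6.18). NAcc lifetime array 13 was highest for Chd3 at 9.81 (9.05 to 9.27), Hdac11 at 10.61 (9.87 to 10.14) and Smarcc2 at 8.12 (7.61 to 7.70). In NAcc control, array 16 was lowest for Chd8 at 5.69 (5.94 to 6.06) and Kdm4b at 6.18 (6.38 to 6.49) and highest for Kat2b at 8.83 (7.73 to 8.09), array 18 was lowest for Smarce1 at 8.50 (8.82 to 8.94), and array 19 was highest for Kdm3a at 9.44 (8.76 to 8.91).

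In DG, lifetime array 10 was lowest for Chd3 at 9.12 (10.30 to 10.69) and Smarcc2 at 7.84 (8.36 to 8.57), both of which rose in its group. Early array 1 was lowest for Setd6 at 8.65 (9.21 to 9.34) and for the mean over the tested members at 8.22 (8.34 to 8.40). Early array 4 was lowest for Tet3 at 6.89 (7.25 to 7.44).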

How the results depend on the processing

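No member named by the rule changed direction under any alternative run. Between regions, values as deposited gave 66 members higher in DG and 5 in NAcc (33 and 24 after centring), with 15 of the 24 turned, Brd1 (+0.32), Dnmt3a (+0.35), Dnmt3b (+0.55), Kmt2d (+0.01) and Smarcd1 (+0.04) among them, and control animals alone gave 28 and 34. Of all 11301 features 9354 and 759 were higher in DG and NAcc as deposited, and 3746 and 3944 in control animals alone. Counts of members that passed moved by over 1.5 times as follows, against 15 for each DG group and control, 1 for lifetime against early in DG, 57 between regions, and 0 in NAcc and in the tests of whether the effect differed between regions. With array spread as a covariate 0 passed in DG early and 0 in DG lifetime. With the animal as a replicate block, both regions pooled and arrays centred, the counts were 8, 7 and 0 in the 3 DG comparisons, where centring alone gave 18, 18 and 1. Of all 11301 features 618, 1049 and 143 passed in the block fit. Array weights gave 25 for DG lifetime, 5 for DG lifetime against early, and 1, 2 and 1 in NAcc (early, lifetime, and lifetime against early). With these weights 2937, 433, 287, 144 and 61 of all 11301 features passed, in the same order. Fitting only the 2 groups compared gave 2 for DG lifetime against early, where 167 of all 11301 features passed. Leaving out NAcc early array 5 and lifetime array 8 gave 4 for NAcc lifetime, where 279 of all 11301 features passed. Without animals 5 and 8, the tests of a different effect in each region gave 1 for the early and 2 for the lifetime effect, and with no replicate block the lifetime effect gave 1. Of all 11301 features 36, 207 and 107 passed in those fits. Leaving out 1 array at a time gave 3 to 19 for DG early, 8 to 22 for DG lifetime and 1 to 2 for lifetime against early in DG, and 0 in NAcc. Of all 11301 features 213 to 2273 then passed for DG early, 808 to 2611 for DG lifetime and 109 to 185 for lifetime against early in DG. Apart from arrays left out, named members kept their side of the threshold in 67 of 88 alternative values for DG early, 71 of 89 for DG lifetime and 70 of 72 between regions. The causes were not tested. Array spread and group are partly confounded in DG, so the covariate also takes up part of the group difference. The filter on low signal left 7 members untested in DG and 8 in NAcc.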
